A study of Mus musculus with 12 samples.

Results

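Genes used as markers of monocytes that enter the brain from the blood were followed in CD11b+ cells of the mouse hippocampus after irradiation. The 9 members were Ccr2, Cd44, Fn1, Plac8, S100a4, S100a6, Plbd1, Vim and Ahnak, out of 18193 genes with a probe set on the array. They were chosen by name, with earlier results of these data known. Each gene was read from its brightest probe set, by mean over the 12 arrays, and the other probe sets served as checks. The study had 4 groups of 3 female mice, which were Balb/c irradiated, Balb/c sham, C57BL/6 irradiated and C57BL/6 sham, and each array held RNA from 1 mouse. At 6.5 weeks of age the irradiated mice were given 10 Gy once, as X-rays aimed at a forebrain circle 1 cm wide, and all mice were analysed at 10.5 weeks, 1 month after irradiation or sham treatment. From 5000 to 10000 CD11b+ cells per animal were sorted by flow cytometry, and no other surface marker of the sort is given in the labels. Values are log2 intensities, on which a difference of 1 is a doubling, and the number of arrays limits their precision.

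Microglia settle in the brain before birth and renew themselves there, whereas monocytes are made in the bone marrow and circulate in the blood. Monocytes of the inflammatory kind follow the chemokine CCL2 through the receptor CCR2, and after entering tissue they adhere to matrix, change shape and turn into macrophages. Microglia, monocytes, neutrophils, border-associated macrophages and natural killer cells all carry CD11b, so a CD11b+ sort can hold each of them. None of the 9 genes belongs to monocytes alone, since Vim, Fn1, S100a6 and Ahnak are also made by astrocytes and cells of the vessel wall, and activated microglia can make several of them. In RNA from a sorted mixture, more cells of a type and more RNA per cell cannot be told apart.

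All 9 genes passed the filter for detection, a log2 value above 5 in at least 3 arrays, which 9120 genes passed in all. For 8 of the 9 genes all 12 arrays lay above 5, and the exception was Plbd1. The microglial genes P2ry12, Tmem119 and Cx3cr1 were bright in all 12 mice, with lowest values of 13.76, 13.84 and 13.79. The monocyte markers Ly6c1 and Ly6c2 had no probe set assigned to that gene alone, so the label of recruited monocytes could not be checked against them. RNA quality was not even. For Actb and Gapdh, probe sets at the 3′ end exceeded those at the 5′ end, which grows as RNA copies get shorter, by 4.25 ± 0.562 in Balb/c irradiated, 3.69 ± 0.135 in Balb/c sham, 3.63 ± 0.123 in C57BL/6 irradiated and 3.64 ± 0.13 in C57BL/6 sham arrays (log2, SD, n = 3). The 18S ribosomal RNA signal was lower in irradiated arrays by 0.737 on average (p = 0.005 in a two-sided exact permutation test that shuffles mice within each strain, the smallest that 400 permutations can give). In the same permutation test the 3′ minus 5′ difference was higher in irradiated arrays by 0.269 on average (p = 0.215). It was 3.70, 4.82 and 4.21 in the Balb/c irradiated mice.

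The first question was which of the 9 genes differed between irradiated and sham mice within each strain. In Balb/c mice 4 of the 9 rose, namely Cd44, Fn1, S100a6 and Vim, and in C57BL/6 mice 7 rose, the same 4 with Ccr2, S100a4 and Plbd1. None fell in either strain, where 2.89% of all genes in Balb/c and 1.46% in C57BL/6 were called lower. The 4 genes called in both strains compare with 1.04% of all genes called higher in both. Calls rest on limma's moderated test with an adjusted p under 0.05 over all 9120 genes, and 3.26% of all genes were called higher in Balb/c and 2.21% in C57BL/6, against 6.15% and 3.67% called in either direction. The median change over the 9 genes was 1.17 in Balb/c and 1.34 in C57BL/6, while the median over all tested genes was -0.04 in each strain. All 3 irradiated mice lay above all 3 sham mice for 7 of the 9 genes in Balb/c, a pattern that 12.8% of all genes showed, and for 8 of the 9 in C57BL/6, where 11.4% of all genes showed it. It held in both strains for 7 of the 9, against 4.70% of all genes. Since the 9 genes were chosen with earlier results of these data known, the shares of all genes set beside them are a description and not a test. The 18S signal was lower in irradiated mice of both strains, the 3′ minus 5′ difference was highest in Balb/c irradiated mice, and their part in these counts was not tested. With either measure as a covariate none of the 9 was called in Balb/c, and the standard errors of the 4 genes called without a covariate grew. The 18S signal in Balb/c ran from 10.48 to 11.60 in irradiated and from 11.93 to 12.32 in sham mice. Its part and that of irradiation cannot be told apart by such a fit. With the 3′ minus 5′ covariate Cd44 was at 1.34 ± 0.45, Fn1 at 0.75 ± 0.23, S100a6 at 1.55 ± 0.38 and Vim at 1.28 ± 0.28 in Balb/c. With the 18S covariate Cd44 was at 1.47 ± 0.57, Fn1 at 0.82 ± 0.30, S100a6 at 1.85 ± 0.47 and Vim at 1.18 ± 0.36.

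**Figure D1:**
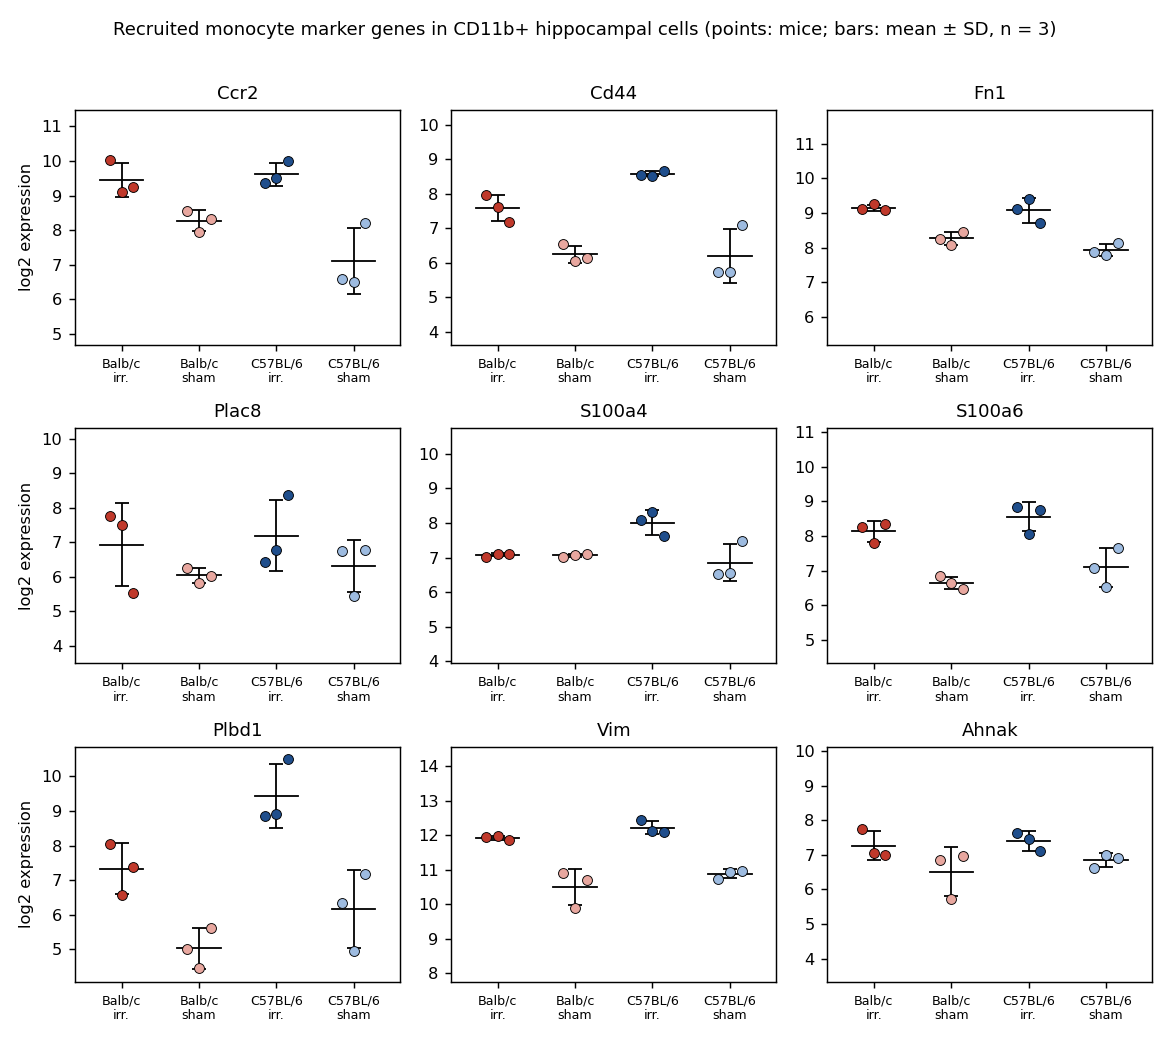
Log2 expression (vertical axis, log2 intensity, each panel spanning the same range) of the 9 genes in Balb/c irradiated, Balb/c sham, C57BL/6 irradiated and C57BL/6 sham mice. Points are mice, horizontal lines are means and bars are SD (n = 3); irradiated points lie above all sham points of their strain in both strains for 7 of the 9 genes, the exceptions being Plac8 and S100a4.

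Ccr2 encodes the receptor through which monocytes follow CCL2 out of the bone marrow and into tissue. Its values were 10.02, 9.10 and 9.24 in Balb/c irradiated mice, against 8.55, 7.95 and 8.33 in Balb/c sham mice. In C57BL/6 they were 9.36, 9.50 and 9.99 in irradiated mice, against 6.59, 6.51 and 8.20 in sham mice. The groups did not overlap in either strain, and C57BL/6 sham replicate 3 stood far above the other sham mice of its strain. Ccr2 rose in C57BL/6 by 2.52 ± 0.42 (log2 ± SE), or 5.73-fold, at an adjusted p of 0.0101 in limma. In Balb/c the difference was 1.17 ± 0.42, with a 95% confidence interval from 0.25 to 2.10, and did not pass at an adjusted p of 0.124. It passed in Balb/c, at an adjusted p of 0.0331, when C57BL/6 sham replicate 3 was left out of the shared estimate of the spread. Of the other 3 probe sets of Ccr2, all below the filter, the brightest ran from 4.57 to 5.55 over the 12 arrays. In C57BL/6 it went the other way, from 4.57 to 4.68 in irradiated mice, below the 4.77 to 4.83 of sham mice. In Balb/c it ran from 4.78 to 5.55 in irradiated mice, against 4.75 to 4.88 in sham mice. The next ran from 3.81 to 4.75 in C57BL/6 irradiated mice, against 3.15 to 3.57 in C57BL/6 sham mice, and from 4.02 to 4.48 in Balb/c irradiated mice, against 3.29 to 3.86 in Balb/c sham mice. The last lay at the bottom of the scale, near 2.23, in every array.

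Cd44 encodes the receptor for hyaluronan, through which leukocytes hold on to matrix and vessel walls. In Balb/c the irradiated mice had 7.95, 7.61 and 7.18, against 6.53, 6.06 and 6.13 in sham mice. In C57BL/6 the irradiated mice had 8.55, 8.51 and 8.65, against 5.74, 5.75 and 7.10 in sham mice. No irradiated mouse of either strain came down to the level of its sham group, and the 3 C57BL/6 irradiated mice lay close together. Cd44 rose by 1.34 ± 0.33 in Balb/c, or 2.54-fold (adjusted p = 0.0400, limma), and by 2.38 ± 0.33 in C57BL/6, or 5.19-fold (adjusted p = 0.00484). The C57BL/6 call held in all 12 fits that left out 1 array. The Balb/c call was lost without any 1 of the 6 Balb/c arrays or the 3 C57BL/6 irradiated arrays, at adjusted p from 0.0504 to 0.127, and it was kept without each C57BL/6 sham array. A second probe set of Cd44 read 6.23, 5.34 and 5.60 in Balb/c irradiated mice, against 4.71, 4.39 and 5.49 in Balb/c sham mice, so that the groups overlapped there. In C57BL/6 that probe set read 7.44, 7.49 and 7.38 in irradiated mice, against 5.16, 4.93 and 5.06 in sham mice. Adjusted over 14438 probe sets, its change was 0.86 ± 0.27 in Balb/c (adjusted p = 0.0982) and 2.39 ± 0.27 in C57BL/6 (adjusted p = 0.00171). The remaining 2 probe sets of Cd44 stayed at the bottom of the scale.

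Fn1 encodes fibronectin, a matrix protein that monocytes and macrophages as well as vessel cells release. Balb/c irradiated mice had 9.10, 9.25 and 9.10, against 8.24, 8.09 and 8.46 in Balb/c sham mice. C57BL/6 irradiated mice had 9.11, 9.41 and 8.70, against 7.88, 7.78 and 8.12 in C57BL/6 sham mice. The separation was complete in both strains with little spread. Fn1 rose by 0.89 ± 0.18 in Balb/c, or 1.85-fold (adjusted p = 0.0164, limma), and by 1.14 ± 0.18 in C57BL/6, or 2.21-fold (adjusted p = 0.00713). The C57BL/6 call held without each array in turn. In Balb/c it was lost without Balb/c sham replicate 1, Balb/c sham replicate 2 and Balb/c irradiated replicate 2, at adjusted p of 0.0572, 0.0693 and 0.0545. Its other probe set lay at the bottom of the scale.

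S100a4 and S100a6 encode small calcium-binding proteins of the S100 family, which bind cytoskeletal and membrane proteins in moving cells. They are close neighbours on mouse chromosome 3, S100a4 at chr3:90603770-90606045 and S100a6 at chr3:90612894-90614414 (GRCm38.p6, RefSeq), 6848 bases apart with only S100a5 between them. Their promoters are shown because these neighbours differed in the strains in which they were called, though neither passed the test of a difference in change between the strains. The sequences are from the reference build alone, so no comparison of the strains can be read from them. Each sequence runs from 250 bases before to 50 after the start of the gene on the plus strand, from RefSeq, and capitals mark a TATA box (TATAAA) or a CCAAT box (CCAAT, here read on the other strand).
S100a4, chr3:90603520-90603819: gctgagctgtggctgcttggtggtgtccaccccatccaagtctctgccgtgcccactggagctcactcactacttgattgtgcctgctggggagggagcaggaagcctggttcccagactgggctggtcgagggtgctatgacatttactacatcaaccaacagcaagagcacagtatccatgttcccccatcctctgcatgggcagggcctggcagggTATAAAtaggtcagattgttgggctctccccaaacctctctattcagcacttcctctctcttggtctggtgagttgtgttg
S100a6, chr3:90612644-90612943: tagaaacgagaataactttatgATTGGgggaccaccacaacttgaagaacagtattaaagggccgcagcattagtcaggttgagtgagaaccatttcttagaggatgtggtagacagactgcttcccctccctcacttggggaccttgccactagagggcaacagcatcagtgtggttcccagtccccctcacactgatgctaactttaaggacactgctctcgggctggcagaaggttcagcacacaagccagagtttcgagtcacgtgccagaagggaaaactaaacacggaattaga
The TATA box of S100a4 begins at position -31 from the start, and 13.62% of 32841 RefSeq promoters of this length hold one on either strand. A CCAAT box was found in 37.42% of them. Of the 9 promoters listed for 8 of the member genes, 2 had a TATA box (Vim and S100a4), 4 a CCAAT box (Vim, S100a6 and both of Plac8) and 2 a GC box, GGGCGG (Cd44 and Ahnak), which 35.67% of all promoters held. None of the 9 held the AP-1 motif TGANTCA, the core of the interferon-stimulated response element, a p53 half-site or a CArG box, which 7.81%, 3.44%, 8.36% and 1.63% of all promoters held. These are matches of letters only.

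S100a4 was called in C57BL/6 and not in Balb/c. Balb/c irradiated mice had 7.03, 7.12 and 7.12, against 7.02, 7.06 and 7.10 in Balb/c sham mice. C57BL/6 irradiated mice had 8.08, 8.33 and 7.62, against 6.53, 6.56 and 7.47 in C57BL/6 sham mice. The 6 Balb/c mice lay within 0.1 of each other, whereas the C57BL/6 groups were separate. S100a4 rose in C57BL/6 by 1.15 ± 0.24, or 2.23-fold (adjusted p = 0.0294, limma), while in Balb/c its difference was 0.02 ± 0.24, with a 95% confidence interval from -0.51 to 0.56 (adjusted p = 0.966). The C57BL/6 call was lost without C57BL/6 sham replicates 1 and 2, at adjusted p of 0.0814 and 0.0859, and without C57BL/6 irradiated replicates 1 and 2, at 0.0749 and 0.0648. With the 18S covariate it was also lost, at 1.21 ± 0.30 (adjusted p = 0.0642).

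S100a6 was higher after irradiation in both strains. Balb/c irradiated mice had 8.26, 7.78 and 8.35, against 6.83, 6.63 and 6.47 in Balb/c sham mice. C57BL/6 irradiated mice had 8.83, 8.07 and 8.75, against 7.09, 6.54 and 7.65 in C57BL/6 sham mice. Every irradiated mouse lay above every sham mouse of its strain. S100a6 rose by 1.49 ± 0.29 in Balb/c, or 2.80-fold (adjusted p = 0.0142, limma), and by 1.46 ± 0.29 in C57BL/6, or 2.75-fold (adjusted p = 0.0237). The Balb/c call was lost without Balb/c sham replicate 2 and Balb/c irradiated replicate 3, at adjusted p of 0.0527 and 0.0559. The C57BL/6 call was lost without C57BL/6 sham replicates 1 and 2, at 0.0596 and 0.0657, and without C57BL/6 irradiated replicates 1 and 3, at 0.0663 and 0.0926.

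Among the 15 S100 genes of chromosome 3, 12 had a probe set and 8 passed the filter. Of these 8, S100a6, S100a8 and S100a9 rose in Balb/c, and S100a4, S100a6 and S100a10 rose in C57BL/6. S100a10, which encodes the partner of annexin A2 at the cell membrane, had 9.39 ± 0.18 in Balb/c irradiated and 8.58 ± 0.353 in Balb/c sham mice (log2, SD, n = 3), a difference of 0.81 ± 0.23 that did not pass (adjusted p = 0.0665, limma). In C57BL/6 it had 10.31 ± 0.284 in irradiated and 9.29 ± 0.385 in sham mice and rose by 1.02 ± 0.23 (adjusted p = 0.0412). S100a8 and S100a9, the subunits of calprotectin in neutrophils and monocytes, rose in Balb/c by 4.10 ± 0.67 (adjusted p = 0.00697) and 3.19 ± 0.64 (adjusted p = 0.0171). Their differences in C57BL/6 were 0.21 ± 0.67 and 0.47 ± 0.64, with adjusted p of 0.881 and 0.703. S100a3 and S100a5, which lie to either side of S100a4, were at 2.23 in every array, the bottom of the scale.

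**Figure D2:**
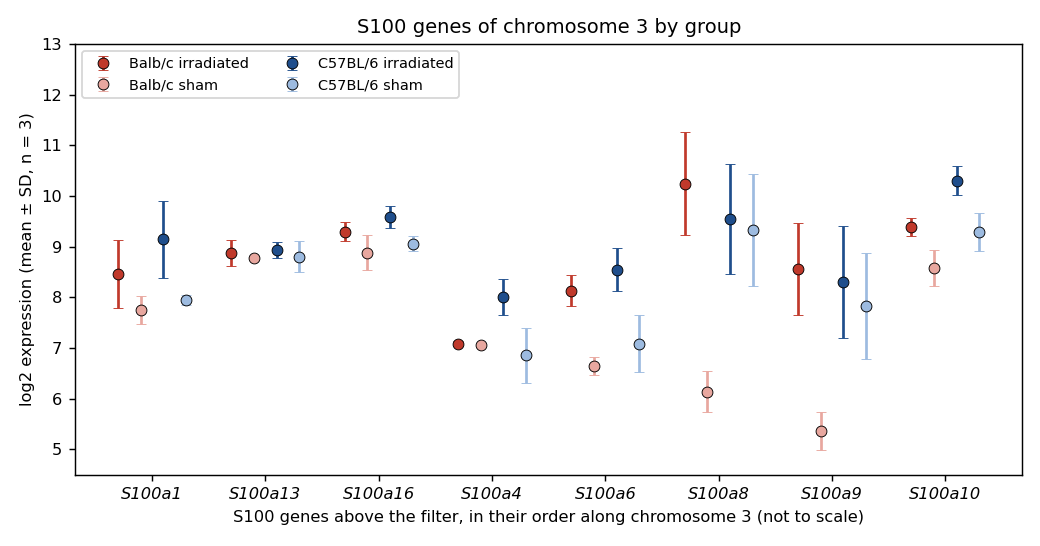
Log2 expression (vertical axis, mean ± SD, n = 3) of the 8 S100 genes above the filter, in their order along chromosome 3 (horizontal axis, not to scale), in Balb/c irradiated, Balb/c sham, C57BL/6 irradiated and C57BL/6 sham mice. S100a6 was called higher in irradiated mice of both strains and S100a4 in C57BL/6, and the sham level of S100a8 is 6.14 in Balb/c and 9.33 in C57BL/6.

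Vim encodes vimentin, the intermediate filament of monocytes, macrophages, reactive astrocytes and vessel cells. In Balb/c the irradiated mice had 11.93, 11.97 and 11.85, against 10.89, 9.89 and 10.69 in Balb/c sham mice. In C57BL/6 the irradiated mice had 12.42, 12.12 and 12.10, against 10.73, 10.93 and 10.97 in C57BL/6 sham mice. The irradiated mice of both strains lay close together and apart from their sham groups. Vim rose by 1.42 ± 0.22 in Balb/c, or 2.68-fold (adjusted p = 0.00498, limma), and by 1.34 ± 0.22 in C57BL/6, or 2.53-fold (adjusted p = 0.00962). Both calls held in all 12 fits that left out 1 array. The Balb/c call was lost with the 3′ minus 5′ covariate (adjusted p = 0.0724) and the 18S covariate (adjusted p = 0.209), and the C57BL/6 call without both C57BL/6 irradiated replicate 3 and replicate 2 of Balb/c irradiated mice (adjusted p = 0.0509). The other 2 probe sets of Vim were also called higher in both strains, by 1.14 ± 0.25 and 1.69 ± 0.23 in Balb/c and by 1.54 ± 0.25 and 1.496 ± 0.230 in C57BL/6, at adjusted p from 0.00339 to 0.0266 over all probe sets.

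Ahnak encodes a giant scaffold protein that binds S100A10 and annexin A2 under the membrane. Balb/c irradiated mice had 7.75, 7.05 and 6.996, against 6.86, 5.72 and 6.98 in Balb/c sham mice. C57BL/6 irradiated mice had 7.65, 7.46 and 7.10, against 6.62, 7.01 and 6.92 in C57BL/6 sham mice. The groups did not overlap in either strain, but the nearest mice were within 0.1 of each other. The differences of 0.75 ± 0.32 in Balb/c (adjusted p = 0.197, limma) and 0.55 ± 0.32 in C57BL/6 (adjusted p = 0.340) did not pass, with 95% confidence intervals from 0.04 to 1.46 and from -0.16 to 1.26. Its other 3 probe sets were at the bottom of the scale.

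Plbd1 encodes a phospholipase B-like protein of granulocytes and monocytes and had the highest change of the 9 genes in both strains. Balb/c irradiated mice had 8.05, 6.57 and 7.36, against 4.998, 4.44 and 5.62 in Balb/c sham mice. C57BL/6 irradiated mice had 8.85, 8.92 and 10.49, against 6.35, 4.95 and 7.17 in C57BL/6 sham mice. The groups were separate in both strains in spite of a wide spread within each. Plbd1 rose in C57BL/6 by 3.26 ± 0.62, or 9.61-fold (adjusted p = 0.0202, limma). In Balb/c its difference was 2.31 ± 0.62, or 4.95-fold, and just missed the threshold at an adjusted p of 0.0523. The C57BL/6 call was lost without C57BL/6 sham replicate 2 (adjusted p = 0.0548) and C57BL/6 irradiated replicate 3 (adjusted p = 0.0732), and the Balb/c difference passed without C57BL/6 sham replicates 2 and 3 in turn (adjusted p = 0.0340 and 0.0445) and C57BL/6 irradiated replicate 3 (adjusted p = 0.0385). In Balb/c sham mice and in C57BL/6 sham replicate 2 Plbd1 lay close to the detection threshold of 5, where a fold change is rough. Without C57BL/6 sham replicate 2 its change in C57BL/6 was 2.66.

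Plac8 encodes a small cysteine-rich protein of myeloid cells and did not pass in either strain. Its values were 7.75, 7.49 and 5.55 in Balb/c irradiated mice, against 6.27, 5.83 and 6.03 in Balb/c sham mice. In C57BL/6 the irradiated mice had 6.44, 6.76 and 8.37, against 6.74, 5.43 and 6.76 in C57BL/6 sham mice. The groups overlapped in both strains, and a single irradiated mouse stood apart in each, low in Balb/c and high in C57BL/6. The difference was 0.89 ± 0.63 in Balb/c (adjusted p = 0.443, limma) and 0.88 ± 0.63 in C57BL/6 (adjusted p = 0.437), with 95% confidence intervals from -0.50 to 2.28 and from -0.51 to 2.27.

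**Figure D3:**
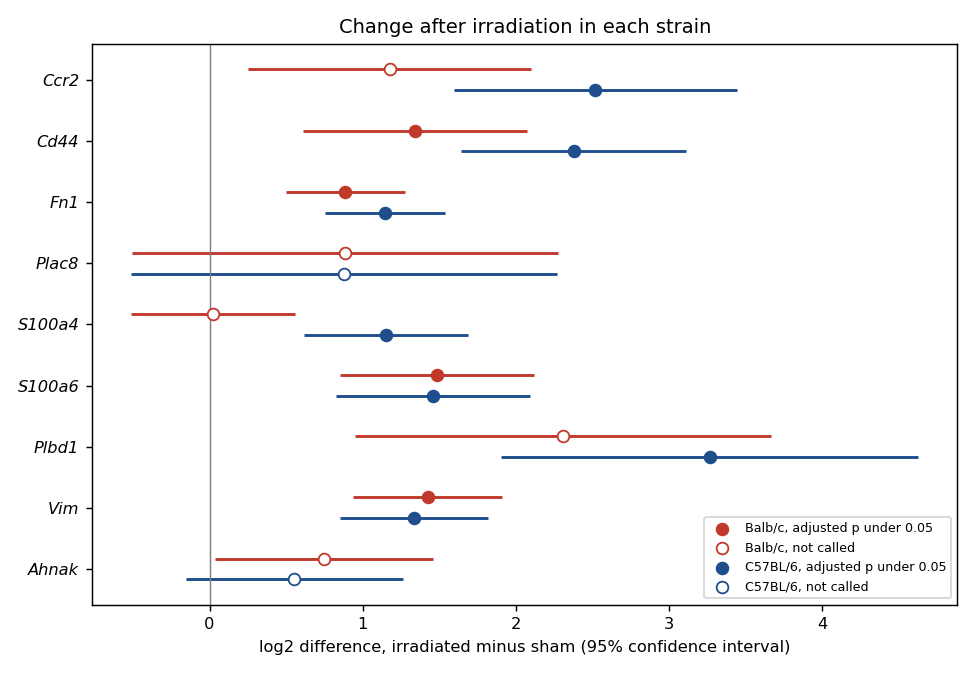
Log2 difference between irradiated and sham mice (horizontal axis) for the 9 genes in Balb/c and C57BL/6, with 95% confidence intervals as lines and filled points for an adjusted p under 0.05. All points lie above 0, from 0.02 for S100a4 in Balb/c to 3.26 for Plbd1 in C57BL/6.

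The members did not rank the mice of a group alike. C57BL/6 irradiated replicate 3 was the highest of its group for Ccr2, Cd44, Plac8 and Plbd1 and the lowest for Fn1, S100a4, Vim and Ahnak. C57BL/6 sham replicate 3 was the highest of its group for 8 of the 9 genes, all but Ahnak. Balb/c sham replicate 2 was the lowest of its group for 7, all but S100a4 and S100a6. In C57BL/6 sham replicate 3 the summed intensity of the border-associated macrophage markers was 26777, against 16076 and 13631 in the other C57BL/6 sham mice. That of further genes of circulating monocytes was 59444, against 42837 and 41296. In C57BL/6 sham mice this sum ran from 15.33 to 15.86 on the log2 scale. Lyz1 alone, 1 of the 18 genes in it, ran from 14.84 to 15.38, and Lyz2 had a mean of 13.17. The part of either set of genes in the high member values of that mouse was not tested.

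The next question was whether the change after irradiation differed between the strains. None of the 9 genes passed the test of this difference in limma, where 0.0768% of all genes passed, and 2 had an unadjusted p under 0.05, as did 8.06% of all genes. For S100a4 the change in Balb/c minus that in C57BL/6 was -1.13 ± 0.34, with a 95% confidence interval from -1.89 to -0.37 (adjusted p = 0.465). For Ccr2 it was -1.34 ± 0.59, with an interval from -2.65 to -0.04 (adjusted p = 0.617). Cd44 had -1.03 ± 0.47, with an interval from -2.07 to 0.00 (adjusted p = 0.618). The second probe set of Cd44 had -1.53 ± 0.385, also not called, at an adjusted p of 0.370 over all probe sets. The intervals of S100a6, from -0.87 to 0.92, and of Vim, from -0.60 to 0.77, lay around 0, which leaves room for a difference of either sign. Those of the other 4 genes also held 0 and were widest for Plac8, from -1.96 to 1.97.

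Balb/c and C57BL/6 mice were then compared directly. In irradiated mice, in the fit without the replicate number as a block, S100a4 was lower in Balb/c by -0.92 ± 0.24 (adjusted p = 0.0388, limma). It was the only 1 of the 9 called in that fit, where 4.59% of all genes were called lower and 8.97% in either direction. All 3 Balb/c irradiated mice lay below all 3 C57BL/6 irradiated mice for 4 genes, S100a4, Cd44, Plbd1 and Vim, and 27.4% of all genes had groups that did not overlap in this comparison. Cd44 was at -0.99 ± 0.33 (adjusted p = 0.0990) and Plbd1 at -2.09 ± 0.62 (adjusted p = 0.0624), neither of them called. With the replicate number as a block, in a fit of all 12 arrays, S100a4 was no longer called (adjusted p = 0.0630) and Plbd1 was, at -2.09 ± 0.38 (adjusted p = 0.00921). The second probe set of Cd44 was lower in Balb/c by -1.72 ± 0.27, at an adjusted p of 0.00222 over all probe sets. The S100a4 call was kept only without C57BL/6 sham replicates 1 to 3 or C57BL/6 irradiated replicate 3, and was lost without each of the other 8 arrays in turn, at adjusted p from 0.0561 to 0.133.

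In sham mice none of the 9 genes was called between the strains, where limma called 10.5% of all genes, and 1 had an unadjusted p under 0.05, as did 22.8% of all genes. This was Ccr2, higher in Balb/c sham mice by 1.18 ± 0.42, with a 95% confidence interval from 0.26 to 2.10 (adjusted p = 0.113). Without C57BL/6 sham replicate 3 its difference was 1.73 and passed (adjusted p = 0.00521). No member had sham groups that were fully separate between the strains, as 28.5% of all genes had.

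Genes of related function were read from lists beside the members. Of 22 further genes of circulating monocytes, 18 had a probe set and 10 passed the filter, while F10, Napsa, Thbs1, Hp, Ace and Treml4 did not exceed 5 in any array. In Balb/c 2 of the 10 rose, with a median change of 0.51, and in C57BL/6 3 rose, with a median of 0.80. The change was positive for 9 of the 10 in each strain. In C57BL/6 the exception was Chil3, at 4.89 ± 2.72 in irradiated and 6.22 ± 2.23 in sham mice (log2, SD, n = 3), not called. In Balb/c Chil3 was at 4.94 ± 2.33 in irradiated and 2.76 ± 0.287 in sham mice, also not called. Ms4a4c, a membrane protein of monocytes that is also induced by interferon, rose by 2.54 ± 0.40 in Balb/c (adjusted p = 0.00553) and 2.66 ± 0.40 in C57BL/6 (adjusted p = 0.00669). Mgst1, a membrane glutathione transferase, rose in Balb/c by 1.13 ± 0.29 (adjusted p = 0.0425). The lysozyme gene Lyz2, which microglia also make, rose in C57BL/6 by 1.02 ± 0.21 (adjusted p = 0.0293). The related gene Lyz1 rose there by 0.59 ± 0.14 (adjusted p = 0.0452). Whether the Lyz1 probe set also reads Lyz2 was not tested. Itga4, the α4 integrin subunit with which monocytes bind vessel walls, was at 0.53 ± 0.31 in Balb/c (adjusted p = 0.354) and 1.13 ± 0.31 in C57BL/6 (adjusted p = 0.0734).

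Among 6 genes for CCR2 ligands and other attractants, 2 rose in Balb/c and 1 in C57BL/6, with medians of 0.55 and 0.66. Ccl12, a mouse ligand of CCR2, had 12.80 ± 0.168 in Balb/c irradiated and 10.63 ± 0.348 in Balb/c sham mice, and 12.86 ± 0.108 in C57BL/6 irradiated and 11.92 ± 0.245 in C57BL/6 sham mice (log2, SD, n = 3). It rose by 2.17 ± 0.18 in Balb/c (adjusted p = 1.82e-04) and by 0.94 ± 0.18 in C57BL/6 (adjusted p = 0.0235). Ccl8 rose in Balb/c by 3.66 ± 0.44 (adjusted p = 0.00176) and was at 1.36 ± 0.44 in C57BL/6 (adjusted p = 0.112). Ccl2, the main ligand of CCR2, did not pass, at 0.75 ± 0.35 in Balb/c (adjusted p = 0.238) and 0.77 ± 0.35 in C57BL/6 (adjusted p = 0.241).

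The list of S100, annexin and LIM partners had 17 of 20 genes above the filter, of which 7 rose in Balb/c and 9 in C57BL/6, with medians of 0.71 and 1.12 and none lower. Lgals3, a galectin of macrophages, rose by 1.22 ± 0.32 in Balb/c (adjusted p = 0.0469) and 2.32 ± 0.32 in C57BL/6 (adjusted p = 0.00455). Lgals1, also a galectin, rose by 1.15 ± 0.20 (adjusted p = 0.00909) and 1.69 ± 0.20 (adjusted p = 0.00187) in the same strains. Anxa2, the annexin that S100A10 and AHNAK bind, rose by 1.13 ± 0.29 in Balb/c (adjusted p = 0.0462) and 1.91 ± 0.29 in C57BL/6 (adjusted p = 0.00669). Crip1, a LIM domain protein, rose by 0.77 ± 0.17 (adjusted p = 0.0225) and 1.17 ± 0.17 (adjusted p = 0.00484). By contrast, of 18 partners of CD44 and fibronectin 9 passed the filter and none rose in either strain in limma. In each strain 2 had an unadjusted p under 0.05, higher or lower, which 22.8% of all genes had in Balb/c and 21.3% in C57BL/6. Of the 2 in Balb/c 1 was Itgb3, the β3 integrin subunit, which fell there by 2.28 (SE 0.44, adjusted p = 0.0142). Itgb3 was at -0.63 ± 0.44 in C57BL/6 (adjusted p = 0.424). Has1, Has2 and Has3, which make hyaluronan, did not exceed 5 in any array, and Spp1 had no probe set assigned to it alone. Of 4 intermediate filament and lamina genes above the filter, Gfap, the filament of astrocytes, rose in Balb/c by 1.59 ± 0.38 (adjusted p = 0.0360) and was at 0.97 ± 0.38 in C57BL/6 (adjusted p = 0.172), where none of the 4 was called and 2 had an unadjusted p under 0.05.

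Markers of other cells moved with irradiation too. Of 9 astrocyte markers above the filter 4 rose in Balb/c and 0 in C57BL/6, where 6 had an unadjusted p under 0.05, with medians of 0.82 and 0.68. Summed over all 10 with a probe set, their intensity ran from 25010 to 37566 in Balb/c irradiated, 13623 to 18406 in Balb/c sham, 20031 to 28852 in C57BL/6 irradiated and 12142 to 17614 in C57BL/6 sham mice. Of 8 endothelial and pericyte markers 4 rose in Balb/c and 0 in C57BL/6 (3 at an unadjusted p under 0.05), and sums over all 10 with a probe set were 13474 to 17299 in Balb/c irradiated, 5608 to 9922 in Balb/c sham, 6929 to 10203 in C57BL/6 irradiated and 5557 to 6596 in C57BL/6 sham mice. Pecam1 and Cdh5, defining genes of endothelium, did not exceed 5 in any array. The part of these cells in the values of Vim, Fn1, S100a6 and Ahnak was not tested.

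Of 12 border-associated macrophage markers 3 rose in Balb/c and 0 in C57BL/6 (8 at an unadjusted p under 0.05), with sums of 14996 to 19660 in Balb/c irradiated, 10934 to 11870 in Balb/c sham, 24733 to 30062 in C57BL/6 irradiated and 13631 to 26777 in C57BL/6 sham mice. Of 4 neutrophil markers above the filter S100a8 and S100a9 rose in Balb/c, while none was called in C57BL/6 (0 at an unadjusted p under 0.05). Summed over the 9 with a probe set, they were at 864 to 3543 in Balb/c irradiated, 118 to 169 in Balb/c sham, 480 to 2499 in C57BL/6 irradiated and 462 to 2334 in C57BL/6 sham mice. The part of neutrophils and border-associated macrophages in the values of the members was not tested. Mmp8, Cxcr2, Elane and Mpo did not exceed 5 in any array. Cd3d, Cd3e and Cd3g were also below 5 in every array, as were Ncr1 and Nkg7, and only Gzma of the T and NK cell list passed the filter, at 2.95 ± 1.09 in Balb/c (adjusted p = 0.137) and 1.97 ± 1.09 in C57BL/6 (adjusted p = 0.319). Of the dendritic cell list Flt3, Itgax, Xcr1 and Ccr7 did not exceed 5, and Batf3, the only 1 of 3 called, was at -1.23 ± 0.13 in Balb/c (adjusted p = 0.00107) and -0.83 ± 0.13 in C57BL/6 (adjusted p = 0.00826). Blnk, 1 of 2 B cell genes above the filter, was called lower in Balb/c, and no neuron or oligodendrocyte gene of the 7 of each was called in either strain in limma, where each list had 1 gene at an unadjusted p under 0.05 in Balb/c and 0 in C57BL/6.

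**Figure D4:**
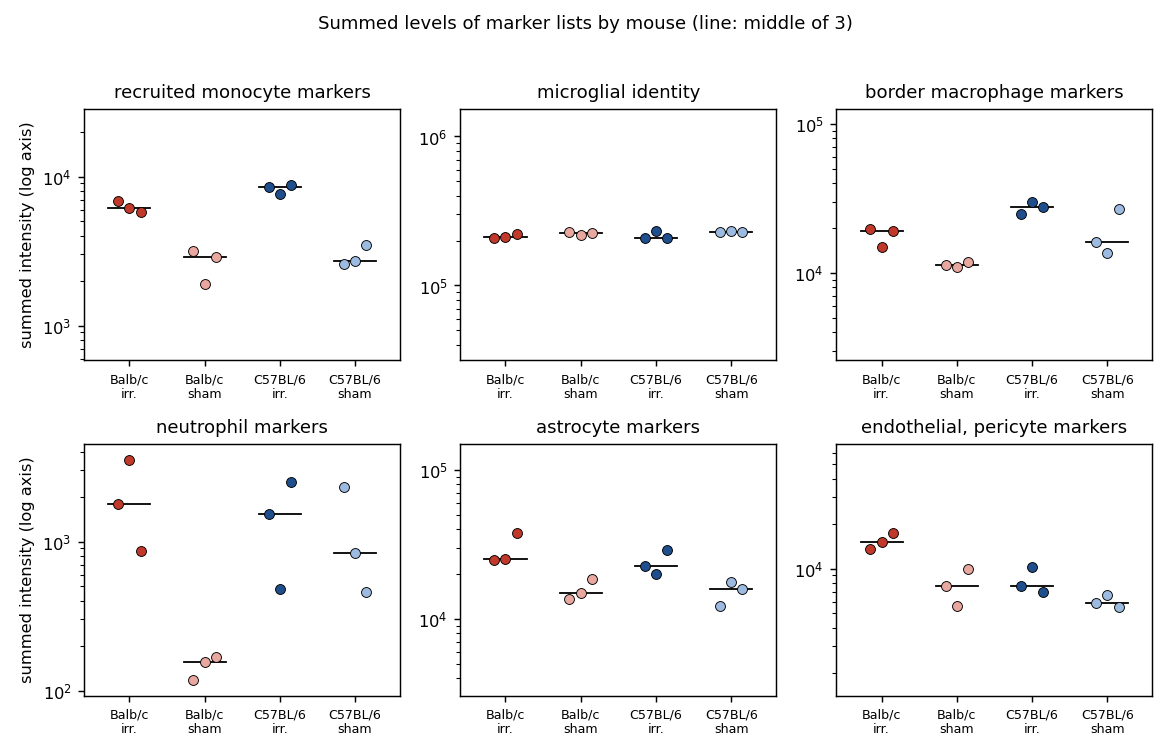
Summed linear intensity (vertical axis, log scale, each panel spanning the same ratio) of the 9 member genes and of 5 lists of cell type markers in Balb/c irradiated, Balb/c sham, C57BL/6 irradiated and C57BL/6 sham mice, with points for mice and a line at the middle of 3. The sum over the 9 genes was 5783 to 6873 in Balb/c irradiated and 1902 to 3142 in Balb/c sham mice, and 7583 to 8752 in C57BL/6 irradiated and 2599 to 3469 in C57BL/6 sham mice, of which Vim alone made up as much as 72.1%, and without Vim it was 2100 to 2970 in Balb/c irradiated, 951 to 1238 in Balb/c sham, 3061 to 4366 in C57BL/6 irradiated and 755 to 1461 in C57BL/6 sham mice; the microglial sum ran only from 207012 to 233292 over all 12.

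Among microglial identity genes, of 15 above the filter 1 fell in Balb/c, Trem2 at -1.02 ± 0.20 (adjusted p = 0.0160), and none was called in C57BL/6 (1 at an unadjusted p under 0.05), with medians of -0.09 and -0.19. P2ry12, a purine receptor of resting microglia, was at -0.11 ± 0.14 in Balb/c and 0.02 ± 0.14 in C57BL/6. Tmem119, a membrane protein of microglia, was at -0.16 ± 0.10 and -0.19 ± 0.10, and the fractalkine receptor gene Cx3cr1 at -0.09 ± 0.11 and -0.22 ± 0.11, with adjusted p from 0.259 to 0.942 for these 3 genes.

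The profile of each member over the 12 arrays was set against the other 9111 genes by Pearson's r, as a description, since all genes share the same arrays and the group differences. The most similar profiles to Ccr2 were those of Lyz2 (r = 0.952) and Lyz1 (r = 0.950). Cd44 was closest to Plp2 (r = 0.970) and Anxa2 (r = 0.930), Fn1 to Cdkn1a (r = 0.957) and Glipr1 (r = 0.948), and Plbd1 to H2-Aa (r = 0.977) and Ms4a7 (r = 0.969). Cdkn1a, the cell cycle inhibitor induced by p53, rose by 3.12 in Balb/c (adjusted p = 4.55e-05) and 4.35 in C57BL/6 (adjusted p = 3.90e-06). S100a6 was closest to Prelid1 (r = 0.959) and Ifitm3 (r = 0.952), and Vim to Timp3 (r = 0.955) and Ehd1 (r = 0.951). S100a4 was nearest to Rnaseh2b (r = 0.927) and Cd209a (r = 0.882), and Cd209a was at 0.15 in Balb/c and 1.59 in C57BL/6, neither called. Ahnak was nearest to Pln (r = 0.921) and AA386476 (r = 0.893). Plac8 had the loosest match of the 9 among the first genes named, with Myef2 (r = 0.887), followed by Lyrm4 (r = 0.846).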

How the data were processed

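The 9 member genes and the gene lists were chosen with earlier results of these data known. The deposited values are log2 intensities of 45101 Affymetrix probe sets, made by the authors with GCRMA per the submitters' processing notes, whose version is not given in the sources used here. Sorted, the values of the 12 arrays coincide to within 0.001, and the lowest is 2.23. RNA, with an integrity number above 7.4, went through linear amplification before labelling, per the labels' protocols. Probe sets with 1 symbol (34945) were named through the platform annotation, updated by Entrez identifier (34741), and 932 with several symbols and 9160 without were not named. Each gene was read from its brightest probe set, kept above 5 in at least 3 arrays (9120 genes).

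Log2 values were fitted with limma 3.58.1 (R 4.3.3), lmFit and eBayes, with a mean per group, and adjusted by Benjamini and Hochberg over all genes kept. The code was tested on simulated data. Same-numbered arrays of the 2 irradiated groups deviated together (r = 0.217, 0.447 and 0.323, all over 0.1), with no label behind the number. The reported calls are from the fit without a replicate block in every comparison. For the irradiated strains the fit with the replicate number as a block is given beside it. Array quality was compared by exact permutation within strains. Named genes were the members, a fixed set of companion genes (Ly6c2 and Spp1 of it had no probe set of their own; 1 further gene is not reported here), called genes among the 4 with the smallest p of each list, and for each member the 2 genes most like it. The chromosome 3 S100 genes, Chil3 and the undetected markers were named after their values were seen. Alternatives were other filters, probe set rules, variance models, covariates, blocks and arrays left out.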

Additional observations from a re-analysis of the deposited data

How the results depend on the processing

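Of 981 values of single members under the alternatives, 863 kept their sign and their side of the threshold, 65 lost a call, 16 gained 1, and 37 uncalled values changed sign; no called value reversed. Counts below are of the 9 members and of all genes called. With no filter, 1 member and 283 genes were called after irradiation in Balb/c, 3 (Cd44, Fn1 and Vim) and 155 in C57BL/6, and 2 genes for the difference of the changes, with 0 members between irradiated strains. With the compared groups alone, so on fewer arrays, 5 members and 364 genes were called in Balb/c, and 2 members (Cd44 and Vim) and 96 genes in C57BL/6. Between irradiated strains 2 members and 533 genes were called in this setting. With the mean of all probe sets 2 members were called between irradiated strains, and with every probe set 1249 probe sets were. With the 3′ minus 5′ difference as a covariate the Balb/c comparison held 0 members and 104 genes, and the standard errors of Cd44, Fn1, S100a6 and Vim grew. The difference held 3 genes, and irradiated strains 0 members and 336 genes. With the 18S covariate these were 0 members and 39 genes in Balb/c, and 0 members and 490 genes between irradiated strains. A further fit was without both replicate 3 of C57BL/6 irradiated and replicate 2 of Balb/c irradiated mice, set apart in earlier work on these data. It called 4 members and 361 genes in Balb/c, and 2 members (Cd44 and Fn1) and 104 genes in C57BL/6. It also called 2 genes for the difference, and 0 members and 450 genes between irradiated strains. Both in that fit and with the compared groups alone, more members were called in Balb/c than in C57BL/6, the reverse of the reported fit. The cause was not tested for these shifts. Leaving out each array in turn gave 1 to 6 members and 218 to 592 genes in Balb/c, 4 to 7 and 113 to 351 in C57BL/6, 0 and 2 to 8 for the difference, 0 to 3 and 576 to 847 between irradiated strains, and 0 to 1 and 681 to 939 between sham strains.

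With the replicate number as a block, 4 members and 580 genes were called after irradiation in Balb/c, 7 and 378 in C57BL/6, 0 and 7 for the difference, 1 and 793 between irradiated strains and 0 and 947 between sham strains. These counts hide swaps: under the block Cd44 lost its call in Balb/c (adjusted p = 0.0544) and Plbd1 gained one (adjusted p = 0.0112), besides the swap of S100a4 and Plbd1 between irradiated strains. The number was not taken as a pairing in the reported fit, and over all pairs of groups 9 of 18 same-numbered pairs had r over 0.1 (-0.048 to 0.447). By array, 8 of 12 had their best correlation outside their own group with an array of their own number. Each group of 3 held 1 such array. With 3 arrays a group, low signal limits Plbd1 in Balb/c sham mice and C57BL/6 sham replicate 2, and the dim probe sets of Ccr2.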
